A study of Mus musculus with 22 samples.

Results

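The 7 caspase genes described here were *Casp1*, *Casp4* and *Casp12* of the inflammatory branch, *Casp8*, *Casp9* and *Casp2*, which encode initiators of cell death, and *Casp6*, which encodes an executioner. Each was read from the row of the testes count table that bears its symbol. They were 7 of 17931 gene symbols in the table, and each had enough counts to enter the 14640 genes tested. Other caspase genes were not analysed here. Caspases are cysteine proteases that cut proteins after aspartate residues and are made as inactive precursors. Initiators become active in multiprotein platforms, such as the death receptor complex for caspase-8 and the apoptosome for caspase-9, whereas inflammatory caspases act in inflammasomes or on bacterial lipopolysaccharide and can open gasdermin pores in the plasma membrane. Death of germ cells through apoptosis is a normal part of spermatogenesis, and dying germ cells are cleared by Sertoli cells.

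RNA was sequenced from whole testes of 3 WT males and 3 constitutive MLX KO males, all aged 7 months and without treatment. MLX is a basic helix-loop-helix leucine zipper transcription factor that dimerizes with MondoA, ChREBP and MAD family proteins. The MLX KO allele lacks exons 3 to 6 of *Mlx*, was made in 129S4 embryonic stem cells, and was deleted in the whole animal with a Meox2-Cre line whose Cre allele was bred out afterwards. WT males were proven breeders, and the animals formed 3 pairs of littermates of the same age, numbered 1 to 3 here as WT1 to WT3 and KO1 to KO3. The strain of the Meox2-Cre mice, and which of the independent MLX KO lines the males came from, are not given in the sources used here. The comparison asks which caspase transcripts differ between testes with and without MLX.

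The authors deposited raw read counts per gene symbol, and the libraries held between 16674678 and 19742726 counts. CPM is the usual scaling of counts to library size, here after TMM, which corrects for library composition, and LFC is the log2 fold change of MLX KO over WT. Genotypes were compared with the quasi-likelihood test of edgeR, and a gene was past the threshold where its p, adjusted after Benjamini and Hochberg over the 14640 genes, was under 0.05. *Mlx* itself had 128, 96 and 98 counts in WT against 94, 109 and 102 in MLX KO. It did not pass the threshold (LFC -0.18, adjusted p = 0.326 from edgeR). A count per gene can include exons outside the deletion, and reads by exon were not examined, so *Mlx* does not check the labels. Markers of elongating spermatids summed to 29760 to 30710 CPM in WT and 18580 to 22320 in MLX KO libraries, so the defining transcripts of testis were present in each. In bulk tissue of this kind, fewer cells of a type and less RNA per cell cannot be told apart.

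Of the 7 caspases, *Casp1*, *Casp4*, *Casp6*, *Casp8* and *Casp12* rose in MLX KO testes, 0 fell, and *Casp2* and *Casp9* did not pass the threshold. Across all genes tested, 24.8% were higher and 20.6% lower past the threshold. The sizes of the changes differed widely within the family. The MLX KO mean of *Casp4* was at least 5.47-fold the WT mean, with WT set at a detection floor of 3 counts. *Casp12* was 4.21-fold higher, *Casp8* 3.06-fold, *Casp1* 1.42-fold and *Casp6* 1.31-fold. *Casp9* had a fold of 1.18 and *Casp2* of 0.977. An LFC over 1 past the threshold was found for *Casp4*, *Casp12* and *Casp8*, against 5.68% of the genes tested. The median LFC over the 7 genes was 0.50, and 0.03 over all genes tested. *Casp4* and *Casp12* had too little signal in WT for the count filter and entered the test through the MLX KO libraries, so they had to differ to be tested. Of the other 5 members, which passed in both genotypes, *Casp1*, *Casp6* and *Casp8* rose. The study itself singled out *Casp4* and *Casp12* among the increased genes of these same libraries, so their direction here is not independent evidence.

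**Figure D1:**
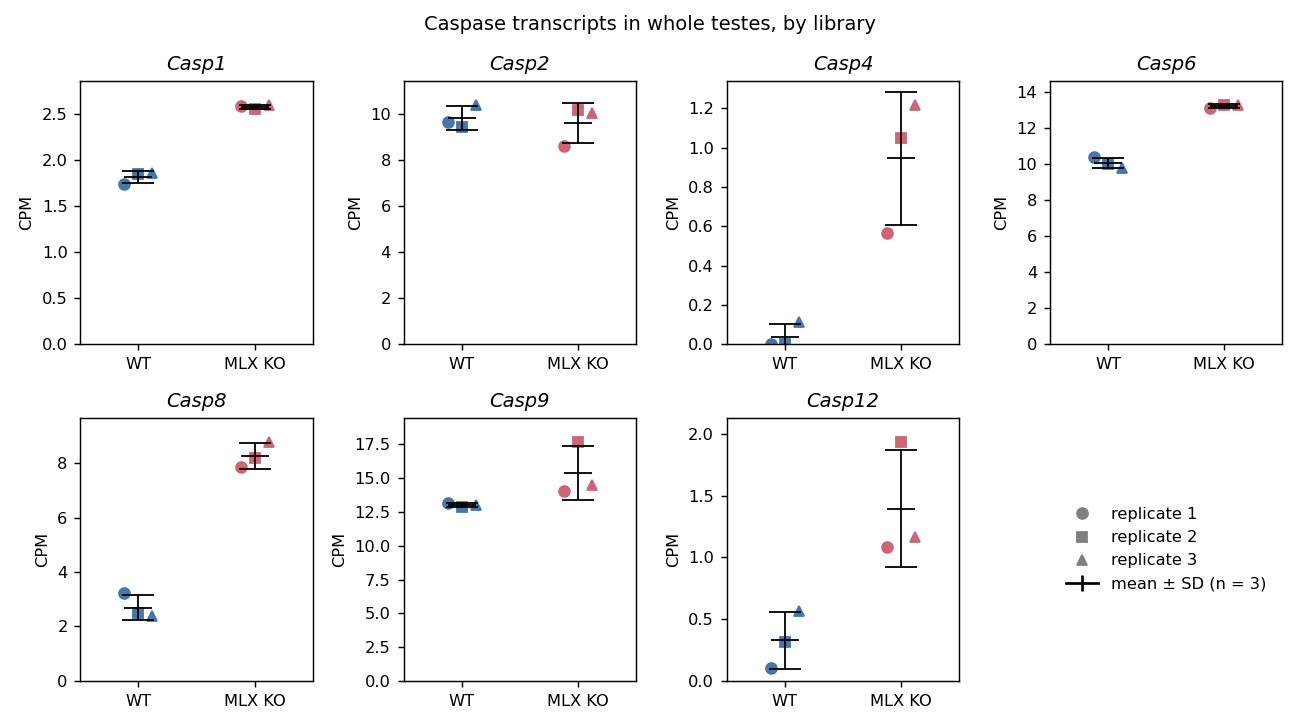
CPM of each of the 7 caspases (y axes, linear and starting at 0) in the 3 WT and 3 MLX KO libraries. Each symbol is 1 library, with its shape giving the littermate pair, and bars show mean ± SD (n = 3). For *Casp8* the MLX KO libraries lie at 7.84 to 8.79 CPM and the WT libraries at 2.37 to 3.22, while *Casp2* overlaps.

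CPM values of the groups did not overlap for 6 of the 7 genes, *Casp2* being the exception, and the same 6 were higher in MLX KO in each of the 3 littermate pairs. For *Casp4* and *Casp12*, with all WT libraries under the count filter, this was required for testing. Only *Casp1*, *Casp6*, *Casp8* and *Casp9* are informative here. Over all genes tested, 30.3% were higher in MLX KO without overlap. Calls in the family differed in how far they held under other processing. *Casp8* and *Casp12* passed the threshold in 14 of 14 alternatives and *Casp4* in 13 of the 13 in which it was tested. For *Casp4* and *Casp12* these passes are no independent support, given how they entered the test. *Casp6* passed in 13 of 14, *Casp1* in 3, *Casp9* in 2 and *Casp2* in 0.

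**Figure D2:**
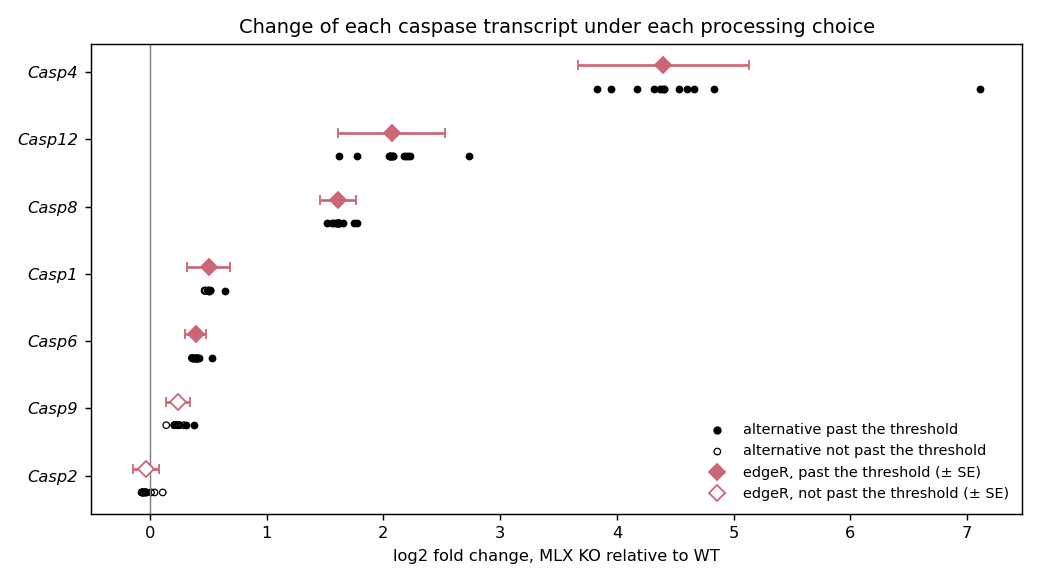
LFC of each caspase, MLX KO relative to WT (x axis, log2 scale). Diamonds show the edgeR fit ± SE and small circles the alternatives, filled where the adjusted p was under 0.05. *Casp8* stays between 1.52 and 1.77 and *Casp12* between 1.62 and 2.73, whereas *Casp4* ranges from 3.83 to 7.11, and most *Casp1* circles are open.

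The inflammatory caspases lie side by side. In mm10, *Casp1* runs from 5298517 to 5307281 on chromosome 9, *Casp4* from 5308849 to 5336791 and *Casp12* from 5345442 to 5373034, all on the plus strand and within 74.5 kb. Between *Casp1* and *Casp4* lie 1567 bases, and between *Casp4* and *Casp12* 8650 bases. The sequences just before the 3 starts are shown because the genes are neighbours that differ in how strongly they changed. They are RefSeq promoter windows of GRCm38.p6, on the plus strand, at chr9:5298267-5298516 for *Casp1*, chr9:5308599-5308848 for *Casp4* and chr9:5345226-5345451 for *Casp12*. Capitals mark the E-box CACGTG in *Casp1*, matches to the NF-kappaB consensus in *Casp4*, and the STAT-type element TTCNNNGAA in *Casp12*.
Casp1: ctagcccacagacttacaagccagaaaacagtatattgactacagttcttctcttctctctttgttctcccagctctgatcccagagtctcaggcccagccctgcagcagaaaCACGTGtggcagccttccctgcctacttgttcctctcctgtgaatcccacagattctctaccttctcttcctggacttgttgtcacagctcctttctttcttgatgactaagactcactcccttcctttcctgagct
Casp4: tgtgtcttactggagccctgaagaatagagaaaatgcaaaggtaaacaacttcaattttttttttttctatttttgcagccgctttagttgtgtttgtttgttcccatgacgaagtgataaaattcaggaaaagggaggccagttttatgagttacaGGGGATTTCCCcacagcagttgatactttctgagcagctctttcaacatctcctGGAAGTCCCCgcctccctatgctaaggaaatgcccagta
Casp12: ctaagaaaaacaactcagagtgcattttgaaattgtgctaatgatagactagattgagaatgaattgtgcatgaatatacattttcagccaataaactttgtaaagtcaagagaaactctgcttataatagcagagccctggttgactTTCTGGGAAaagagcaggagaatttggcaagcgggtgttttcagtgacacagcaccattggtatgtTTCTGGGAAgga
The 3 windows carry different motifs. CACGTG, the core E-box read by MLX and its partners, was found once in the *Casp1* window, 137 to 132 bases before the start. *Casp4* had 3 matches to the NF-kappaB consensus, 2 of them overlapping at 93 to 83 bases before the start and the other at 39 to 30 bases. *Casp12* held TTCTGGGAA at 2 places of its window, which RefSeq sets by a transcript that starts downstream of the annotated gene start, and the second copy lies across that gene start. Searched on both strands in 250 bases before each of 32841 RefSeq starts, CACGTG was found in 6.02% of windows, TTCNNNGAA in 7.02%, the NF-kappaB consensus in 7.25%, and a GAAA pair with 2 bases between, the core of interferon-stimulated elements, in 2.98%. The GAAA pair was in none of the caspase windows, and those of *Casp2*, *Casp6*, *Casp8* and *Casp9* held none of these 4 motifs. The *Casp8* window, from 58802252 to 58802501 on chromosome 1, lies inside the gene as annotated, so the sequence before its outermost start was not searched. That of *Casp2*, from 42264735 to 42264984 on chromosome 6, runs past the annotated gene start at 42264902. Fewer than 250 bases before that start were thus searched. A match describes letters and not binding.

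*Casp4*, the mouse gene for caspase-11, a sensor of lipopolysaccharide inside the cell, had the largest fitted LFC of the family. It had 0, 0 and 2 counts in WT against 11, 19 and 23 in MLX KO. All WT libraries were thus at or under the detection floor of 3 counts, which allows up to 0.158, 0.191 and 0.169 CPM in the 3 libraries. Counts in MLX KO corresponded to 0.567, 1.05 and 1.22 CPM, KO1 being the lowest. The groups did not overlap, which the count filter required. The MLX KO mean of *Casp4* was 5.47-fold the mean WT floor, a bound on the means that leaves out the spread between MLX KO libraries. Its fitted LFC of 4.40 (SE 0.73, edgeR adjusted p = 7.09e-04) depends on the prior count and is no bound. It was 7.11 without WT3, the only WT library with reads, 3.83 without WT1, and *Casp4* was not tested where 1 CPM was required in 3 of the libraries. It was a rare transcript, and only 0.150% of the genes tested had a lower mean CPM over the 6 libraries. Mice of 129 strains are known to carry an inactivating *Casp4* mutation, and the allele in these animals was not analysed here.

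*Casp12*, which encodes an endoplasmic reticulum caspase linked to ER stress, rose as well. Its counts were 2, 5 and 10 in WT against 21, 35 and 22 in MLX KO. WT3 was the highest WT library, KO2 the highest of the 6, and the groups did not overlap, which the count filter required. The mean was 0.329 ± 0.229 CPM in WT and 1.40 ± 0.471 in MLX KO (SD, n = 3 each), and the LFC was 2.07 (SE 0.46, edgeR adjusted p = 0.00379). Changes within the littermate pairs were 2.47, 2.26 and 0.92. *Casp12* remained past the threshold in each alternative, with an LFC of 1.62 without WT1 and 2.73 without WT3.

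*Casp1*, the protease of canonical inflammasomes that matures IL-1beta and IL-18, changed least of the 3 neighbours. Its counts were 33, 29 and 33 in WT against 50, 46 and 49 in MLX KO. Libraries of a genotype lay close together and the groups did not overlap. From 1.82 ± 0.0656 to 2.57 ± 0.0253 CPM (SD, n = 3 each), the LFC was 0.50 (SE 0.19, adjusted p = 0.0452 from edgeR), with 0.54, 0.44 and 0.46 in the pairs. The call was marginal. With a replicate block for the littermate pairs, the adjusted p was 0.0704 in edgeR and 0.421 in DESeq2, it was 0.250 in DESeq2 without the block, and it was not under the threshold when any of the 6 libraries was left out (from 0.0671 without KO1 to 0.124 without WT1).

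**Figure D3:**
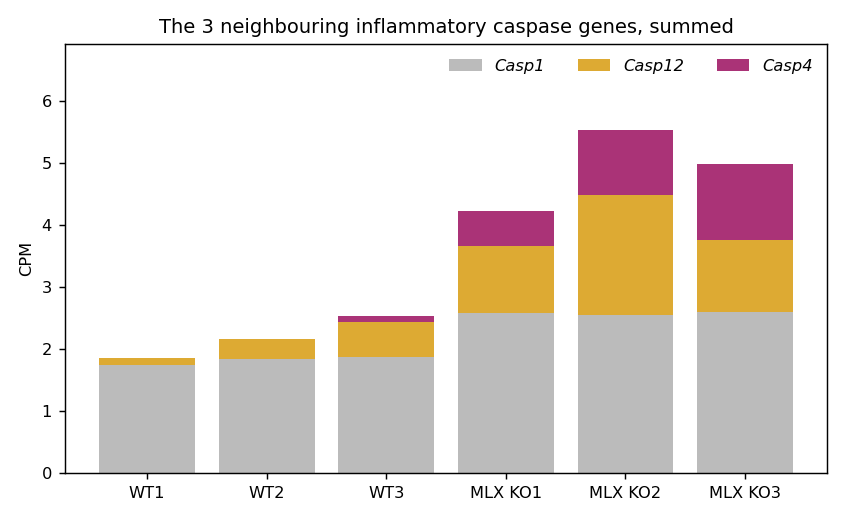
Summed CPM of *Casp1*, *Casp12* and *Casp4* (y axis, linear) in each library (x axis), stacked by gene. The sum goes from 1.85 to 2.54 CPM in WT to 4.23 to 5.53 in MLX KO, and *Casp1* makes up most of it in WT.

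Ratios of counts between the 3 neighbours were compared because they do not depend on scaling between libraries. With 0.5 added to each count, the *Casp4* to *Casp1* ratio was 0.0149, 0.0170 and 0.0746 in WT against 0.228, 0.419 and 0.475 in MLX KO. *Casp12* to *Casp1* went from 0.0746, 0.186 and 0.313 to 0.426, 0.763 and 0.455, and *Casp12* to *Casp4* from 5.0, 11 and 4.2 to 1.87, 1.82 and 0.957. The groups did not overlap for *Casp12* to *Casp1*, a gene pair of which *Casp12* was tested only through its MLX KO counts. The mean log2 ratio of *Casp12* to *Casp1* differed by 1.69, MLX KO minus WT. No difference is given for the ratios with *Casp4*, whose WT values rest on 0 to 2 counts and, in WT1 and WT2, on the 0.5 added. Each of the 3 ratios had an exact permutation p of 0.1 (two-sided, n = 3 against 3), also after Benjamini-Hochberg adjustment over the 3 ratios, which is the smallest p this design can give and does not reach the threshold.

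Partners of the inflammatory caspases went in both directions. Of 13 genes tested from a list for inflammasomes and pyroptosis, 4 rose, 1 fell and 8 did not pass, with a median LFC of 0.26. The share that rose is near the 24.8% of all genes, so the count says little about the list. *Pycard*, the adaptor ASC that joins sensors to caspase-1, had 17, 17 and 7 counts in WT against 39, 31 and 22 in MLX KO, without overlap (LFC 1.05, SE 0.35, adjusted p = 0.0306 from edgeR). Its call was lost in 6 of 14 alternatives, with LFC 0.73 and adjusted p = 0.106 without WT3. *Ninj1*, which ruptures the plasma membrane of dying cells, had an LFC of 1.04 and *Nek7*, an activator of NLRP3, of 0.80. *Il18bp*, the soluble inhibitor of IL-18, also had an LFC of 0.80, lost in 6 of 14 alternatives. *Card6*, a CARD protein of innate signaling, fell, with an LFC of -0.30. Substrates of these caspases did not pass the threshold. *Il1b* had 11, 10 and 13 counts in WT against 20, 14 and 12 in MLX KO (adjusted p = 0.429), *Il18* 21, 17 and 23 against 19, 27 and 26 (adjusted p = 0.697), and the pore-forming *Gsdmd* 116, 95 and 112 against 104, 92 and 108 (LFC -0.19, adjusted p = 0.229, all from edgeR). Among inflammasome genes, *Nlrp1a*, *Nlrp1b* and *Nlrc4* were tested and did not pass (LFC 0.16, -0.37 and 0.26, adjusted p = 0.625, 0.523 and 0.184 from edgeR). The sensors *Nlrp3*, *Nlrp6*, *Aim2* and *Mefv* and the IL-1 antagonist *Il1rn* had too few counts for testing.

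*Casp4* and *Casp1* are known to be inducible by interferon, so a list of 17 interferon-induced transcripts was read beside them. Of the 15 tested, 10 rose and 0 fell, beside 24.8% and 20.6% of all genes tested, with a median LFC of 0.96. The number that rose was between 8 (without WT1 or WT2) and 13 (without WT3) when 1 library was left out. *Psmb8*, an immunoproteasome subunit, had 13, 9 and 12 counts in WT against 86, 46 and 41 in MLX KO (LFC 2.23, SE 0.33, adjusted p = 3.63e-04 from edgeR). *Gbp7* and *Gbp2*, guanylate-binding proteins of which the latter helps expose lipopolysaccharide to caspase-11, had LFCs of 1.82 and 1.83, and *Irf8*, a myeloid transcription factor, 1.71. *Psmb9* (LFC 1.21) and *Gbp3* (LFC 1.08) were also past the threshold but lost it in 6 of 13 and 4 of 14 alternatives. KO1 was the highest MLX KO library for *Psmb8*, *Gbp2*, *Gbp3*, *Gbp7* and *Psmb9*, whereas it was the lowest for *Irf8* and for *Casp4*. Without KO1 the LFC of *Gbp2* was 1.22 and that of *Psmb9* 0.64. *Irf7*, *Ifit1*, *Ifit3*, *Stat2* and *Oasl2* did not pass the threshold, and *Isg15* and *Rsad2* had too few counts for testing.

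For *Casp12*, a list of ER stress genes was read. Of 13 tested, 6 rose and 3 fell, beside 24.8% and 20.6% of all genes tested, with a median LFC of 0.14. The stress sensors rose, with *Eif2ak3*, which encodes PERK, at an LFC of 1.02 (97, 60 and 69 counts in WT against 164, 149 and 178 in MLX KO), *Ern1*, which encodes IRE1, at 0.65, and *Atf6* at 0.30. *Xbp1*, the transcription factor downstream of IRE1, had an LFC of 0.65. Among chaperones and effectors, *Hspa5*, the ER chaperone BiP, had an LFC of -0.02 (adjusted p = 0.690 from edgeR), and *Ddit3*, which encodes the death-promoting factor CHOP, fell with an LFC of -0.18 (adjusted p = 0.0327 from edgeR). That call of *Ddit3* was lost in 6 of 14 alternatives. *Herpud1*, an ER degradation factor, fell with an LFC of -0.47 and the co-chaperone *Dnajb9* with -0.19. The transcription factor *Atf4* (LFC 0.27, adjusted p = 0.0152) and the chaperone *Pdia4* (LFC 0.14, adjusted p = 0.0407, both from edgeR) rose, with the calls lost in 3 and 10 of 14 alternatives. *Atf3*, another gene the study singled out, had 2, 2 and 3 counts in WT against 8, 14 and 21 in MLX KO and was not tested.

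*Casp8*, which encodes the initiator of death receptor signaling that also restrains necroptosis, changed most of the 5 members that passed the filter in both genotypes. In mm10 it lies on the plus strand of chromosome 1, from 58795233 to 58847503. Its counts were 61, 39 and 42 in WT against 152, 148 and 166 in MLX KO. WT1 was the highest WT library, and the lowest MLX KO library was still more than double it. From 2.69 ± 0.461 to 8.27 ± 0.479 CPM (SD, n = 3 each), the LFC was 1.61 (SE 0.15, adjusted p = 2.30e-05 from edgeR), with 1.26, 1.68 and 1.84 in the pairs. Of the genes tested, 1.37% had a higher LFC. Of the 50-base stretches of its transcript, 5.05% also occur in *Gm20257*, a gene without a row in the table, so reads from there could have been counted on *Casp8*.

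Of 3 death receptors listed, *Fas* and *Tnfrsf1a* rose and *Tnfrsf10b*, the TRAIL receptor, did not pass (LFC 0.06, adjusted p = 0.747 from edgeR). Of 13 genes of the complexes that activate caspase-8 and caspase-2, these included, 4 rose, 0 fell and 9 did not pass, with a median LFC of 0.14. Over all genes tested, 24.8% rose and 20.6% fell. *Fas*, the death receptor, had 6, 8 and 7 counts in WT against 33, 29 and 29 in MLX KO (LFC 1.99, SE 0.29, adjusted p = 3.41e-04 from edgeR), and was also singled out by the study. Its WT libraries were all under the count filter, so *Fas* entered the test through the MLX KO libraries and had to differ to be tested. *Tnfrsf1a*, the TNF receptor, had an LFC of 1.16. *Cflar*, the inhibitory caspase-8 homolog FLIP, had 175, 160 and 193 counts against 327, 263 and 289 (LFC 0.63, adjusted p = 6.22e-04 from edgeR), and the kinase *Ripk1* an LFC of 0.35, lost without WT3 and with the block in DESeq2. *Fadd*, the adaptor between receptor and caspase-8, had 109, 93 and 98 counts in WT against 122, 117 and 142 in MLX KO, and did not pass (LFC 0.24, adjusted p = 0.146 from edgeR). The ligand *Fasl* had 25, 22 and 24 against 23, 18 and 18 counts (LFC -0.37, adjusted p = 0.234), and the necroptosis genes *Ripk3* and *Mlkl* had adjusted p-values of 0.527 and 0.315 (all from edgeR).

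*Casp9*, the protease of the apoptosome, is found in mm10 on the plus strand of chromosome 4, from 141793612 to 141815978. Its counts were 249, 202 and 231 in WT against 272, 320 and 274 in MLX KO. The CPM values did not overlap, but KO2, at 17.7 CPM, stood above KO1 and KO3 at 14.0 and 14.5, and the WT libraries lay between 12.8 and 13.1. The LFC of 0.24 (SE 0.10, adjusted p = 0.0763 from edgeR) did not pass, with 0.10, 0.46 and 0.15 in the pairs. Without KO2 the LFC was 0.14 (adjusted p = 0.296). It passed without KO1 (LFC 0.31, adjusted p = 0.0289) and with library size alone (LFC 0.38, adjusted p = 0.0189). The pancreatic protease gene *Cela2a* overlaps it on the other strand, with 8, 6 and 5 counts in WT against 6, 9 and 3 in MLX KO, and 1.20% of the 50-base stretches of *Casp9* recur in *Cela2a* or *Ctrc*. Of 8 genes of the apoptosome and of mitochondrial release, 3 rose and 2 fell, beside 24.8% and 20.6% of all genes tested. *Cycs*, somatic cytochrome c, had 881, 748 and 823 counts in WT against 1145, 1300 and 1266 in MLX KO (LFC 0.50, adjusted p = 2.81e-04 from edgeR), whereas *Cyct*, its testis form, had an LFC of -0.14 (adjusted p = 0.0425 from edgeR) that lost the threshold in 11 of 14 alternatives, both fits with the replicate block and 5 of the 6 leaving out a library among them, and was 0.00 with library size alone. The flavoprotein *Aifm1* had an LFC of 0.50, the nuclease *Endog* of 1.26 (0.81 without WT1, adjusted p = 0.0745) and *Diablo*, which counters caspase inhibitors, of -0.19. *Apaf1*, the scaffold of the apoptosome, had 105, 85 and 91 against 107, 132 and 127 counts with overlapping CPM values (LFC 0.28, adjusted p = 0.126).

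Genes of the inhibitor of apoptosis family were read next. Of 7 tested, 4 rose and 1 fell, beside 24.8% and 20.6% of all genes tested, with a median LFC of 0.68. The list includes *Naip5* and *Naip2*, which rose and are sensors, so this median does not describe caspase inhibitors alone. *Birc2* and *Birc6* did not pass (LFC 0.07 and 0.12, adjusted p = 0.323 and 0.127 from edgeR). *Xiap*, which directly blocks caspase-9, had 233, 178 and 235 counts in WT against 367, 360 and 381 in MLX KO (LFC 0.68, SE 0.09, adjusted p = 1.62e-04 from edgeR). *Birc3*, which encodes the ubiquitin ligase cIAP2, had an LFC of 1.12. *Naip5* and *Naip2*, sensors for caspase-1, had LFCs of 1.71 and 1.21, but near-identical *Naip* copies could have split reads, and *Naip2* lost its call in 5 of 13 alternatives, with an LFC of 0.80 without KO1. *Naip5*, like *Fas*, had every WT library under the count filter and entered the test through the MLX KO libraries. *Birc5*, the mitotic protein survivin, fell with an LFC of -0.21, lost in 5 of 14 alternatives (library size alone, the block in DESeq2, and without WT2, KO2 or KO3).

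*Casp2*, the initiator of the PIDDosome and one of the more abundant members, did not differ detectably. In mm10 it lies on the plus strand of chromosome 6, from 42264902 to 42282508. Its counts were 183, 148 and 184 in WT against 167, 184 and 189 in MLX KO, with overlapping CPM values, and it was higher in 1 of 3 pairs. Means were 9.81 ± 0.502 and 9.60 ± 0.858 CPM (SD, n = 3 each). The LFC of -0.03 (SE 0.11, adjusted p = 0.823 from edgeR) had a 95% interval of -0.25 to 0.18, and its sign changed with library size alone (0.11), without WT3 (0.01) and without KO1 (0.04). Its activators *Pidd1* and *Cradd* had LFCs of -0.08 and 0.06 (adjusted p = 0.779 and 0.864 from edgeR).

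*Casp6*, the executioner that cuts nuclear lamin A, had the smallest increase of those called but a narrow spread. In mm10 it lies on the plus strand of chromosome 3, from 129901415 to 129914112. Its counts were 197, 157 and 174 in WT against 254, 240 and 251 in MLX KO. WT libraries lay between 9.81 and 10.4 CPM and MLX KO libraries between 13.1 and 13.3. The LFC was 0.39 (SE 0.09, adjusted p = 0.00442 from edgeR), with 0.33, 0.41 and 0.43 in the pairs. With the pair as a replicate block in DESeq2 the LFC was 0.36 and the adjusted p 0.119, the 1 alternative in which the call was lost. The locus overlaps *Gm46825* and *Gm40150*, which have no row in the table. Of 15 caspase substrates, 4 rose and 3 fell, with a median LFC of 0.09. These shares are near the 24.8% and 20.6% of all genes tested, so the counts say little about substrates. *Lmna*, the lamin A gene, had an LFC of 0.13 (adjusted p = 0.257 from edgeR). *Vim*, an intermediate filament protein of somatic cells, rose (LFC 1.05, adjusted p = 1.20e-06 from edgeR), as did *Bid* (LFC 0.58), the link from caspase-8 to mitochondria, lost with DESeq2 and the block, the pannexin channel gene *Panx1* (LFC 0.59), lost in 11 of 14 alternatives, and *Gsn*, an actin-severing protein (LFC 0.33), lost in 4 of 14. *Prkcd*, a protein kinase C gene (LFC -0.55), *Xkr8*, the caspase-activated lipid scramblase (LFC -0.30), and *Acin1*, a chromatin condensation factor (LFC -0.14, lost in 7 of 14), fell. With library size alone, 9 substrates rose and 2 fell.

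**Figure D4:**
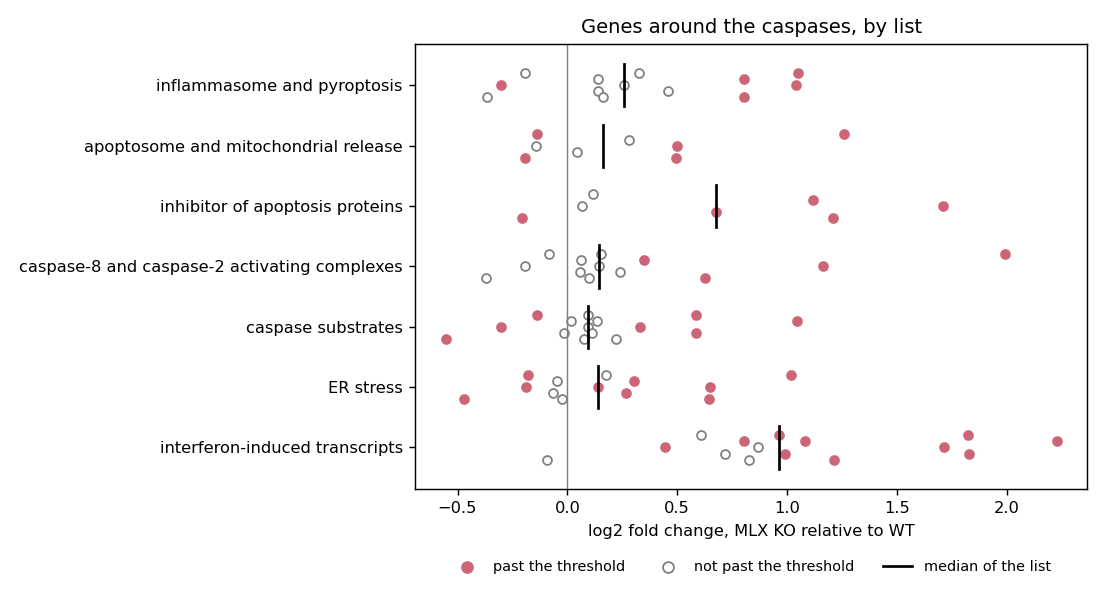
LFC of the tested genes of 7 lists around the caspases (x axis, log2 scale, MLX KO relative to WT). Each circle is 1 gene, filled where the adjusted p was under 0.05, and black lines are list medians. The interferon-induced list has a median of 0.96 and the inhibitor of apoptosis family, which includes the *Naip* sensors, of 0.68, while the others lie between 0.09 and 0.26.

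Over the 7 lists together, 35 of 84 genes tested were higher and 10 lower past the threshold, beside 24.8% and 20.6% of all genes tested, and with library size alone these were 49 and 3. The 35 include 10 from the interferon-induced list. They also include *Fas* and *Naip5*, which entered the test through the MLX KO libraries and had to differ to be tested.

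Per length of transcript, *Casp6* was the most abundant member in both genotypes. In CPM per kb of RefSeq exon, WT means were 6.82 ± 0.200 for *Casp6*, 3.33 ± 0.0367 for *Casp9*, 2.78 ± 0.142 for *Casp2*, 1.20 ± 0.0433 for *Casp1*, 1.04 ± 0.178 for *Casp8*, 0.126 ± 0.0881 for *Casp12* and 0.0261 ± 0.0451 for *Casp4* (SD, n = 3 each). In that order, the ranges of *Casp1* and *Casp8* overlapped, as did those of *Casp12* and *Casp4*. MLX KO means were 8.96 ± 0.0706 for *Casp6*, 3.95 ± 0.512 for *Casp9*, 3.20 ± 0.185 for *Casp8*, 2.72 ± 0.243 for *Casp2*, 1.70 ± 0.0167 for *Casp1*, 0.655 ± 0.234 for *Casp4* and 0.535 ± 0.181 for *Casp12* (SD, n = 3 each). Per kb, *Casp8* thus stood above *Casp2* in MLX KO and below it in WT, in each case without overlapping ranges. Its place above *Casp2* depends on the exon lengths used, 2585 bases for *Casp8* and 3529 for *Casp2*. In raw counts, *Casp8* was below *Casp2* in each MLX KO library (152, 148 and 166 against 167, 184 and 189). *Casp4* and *Casp12* overlapped in MLX KO.

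**Figure D5:**
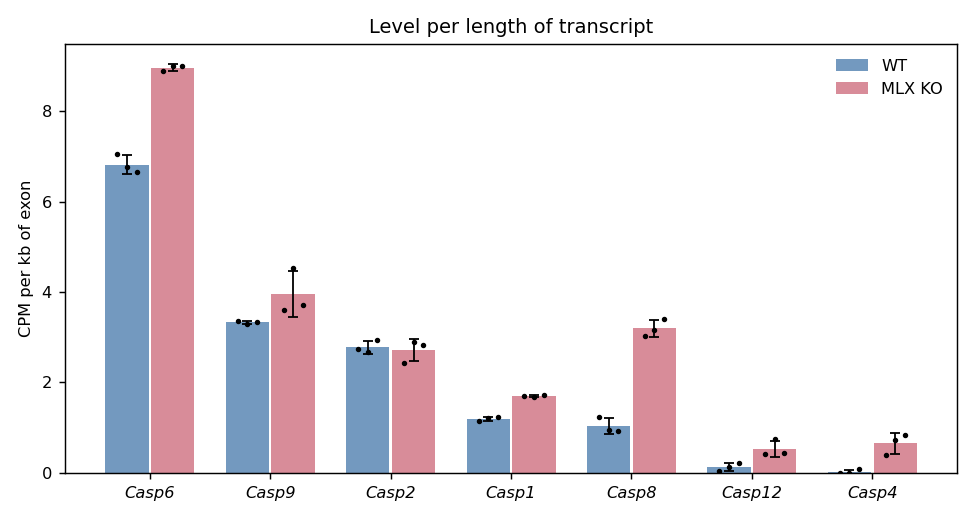
Level of each caspase per length of its transcript (y axis, CPM per kb of exon, linear from 0) in WT and MLX KO testes. Bars are means, error bars SD (n = 3) and points single libraries. *Casp8* goes from 1.04 in WT to 3.20 in MLX KO, against *Casp2* at 2.78 and 2.72, and the MLX KO order of these genes depends on the lengths used.

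The genes tested whose profile over the 6 libraries was most like that of a caspase were found by the root mean square difference of centred log2 CPM. For *Casp8* they were *Emb* (0.113), an immunoglobulin superfamily membrane protein, the serotonin transporter gene *Slc6a4* (0.121) and *Eda* (0.121), which encodes ectodysplasin. For *Casp4* they were *Masp1* (0.200), a protease of the lectin complement pathway, *Lcn2* (0.253), the siderophore-binding lipocalin 2, and *Robo4* (0.254), an endothelial guidance receptor. *Lcn2* had 1338, 1576 and 2189 counts in WT against 9856, 13245 and 13846 in MLX KO, with KO1 lowest and WT3 the highest of WT, the order also seen for *Casp4*. For *Casp4* the WT order rests on 0, 0 and 2 counts, and its log2 profile, and so its closest genes, depend on the prior count. *Casp12* was closest to *Neurl3* (0.252), *Ly6d* (0.254) and *Wfikkn2* (0.262), and *Casp1* to *Lrpap1* (0.0270), *Chpf2* (0.0332) and *Fblim1* (0.0357). In WT, *Casp12* had 2, 5 and 10 counts and *Neurl3* 0, 4 and 7, so these profiles also depend on the prior count. Both genes had every WT library under the count filter and thus had to differ to be tested.

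Markers of the testis cell types also differed between the genotypes, beside 24.8% of all genes tested higher and 20.6% lower past the threshold. Of 14 macrophage and leukocyte markers, 13 were higher and 1, *Aif1*, lower in MLX KO, and the list summed to 463 to 478 CPM in WT and 482 to 525 in MLX KO. Without *Aif1*, the most abundant of them and left out after its values were seen, the sums were 91.2 to 96.8 and 198 to 202. Of lymphocyte and granulocyte markers, 2 were tested and neither passed. All 9 Leydig cell markers (894 to 918 against 1899 to 2493 CPM) and all 10 Sertoli cell markers (934 to 980 against 1439 to 1752 CPM) were higher, as were 2 of 7 endothelial and 4 of 6 peritubular myoid markers, with 1 myoid marker lower. Germ cell lists went down: 8 of 10 spermatocyte, 9 of 10 round spermatid and 11 of 11 elongating spermatid markers were lower and 0 higher, while 2 of 9 spermatogonial markers were higher and 1 lower. The part of these shifts in the caspase changes was not tested.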

How the data were processed

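RNA-seq of whole testes from 3 WT and 3 MLX KO males was used, and ChIP-Seq samples were not analysed here. The deposited values are raw read counts per gene symbol. For these, the authors mapped reads with TopHat to the mm10 build. The counting tool and annotation are not given in the sources used here. The submitters' processing notes also name bcl2fastq 1.8.4. Other columns of the table hold the authors' own comparison (mean, log2 fold change, SE, statistic and p-values) and were not used. Of 17933 lines, 2 repeated another and were used once.

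Genes were filtered with edgeR 4.0.16 (R 4.3.3) at its default minimum count of 10, which left 14640, scaled with TMM and compared by genotype alone in the two-sided quasi-likelihood test, with Benjamini-Hochberg adjustment over all genes tested. DESeq2 1.42.0, other scalings and filters, the littermate pair as a replicate block, and leaving out each library were alternatives. Pairs come from the sample titles and the study's littermate design. In pairs 1, 2 and 3, the deviations of log2 CPM from each genotype's mean had correlations of 0.145, 0.0363 and 0.121 across genes, and at most 0.0330 for other combinations of a WT and a MLX KO library. Libraries of a genotype were no duplicates, since their counts differed beyond sampling noise (chi-square of 2.73 to 8.23 per degree of freedom). KO1 differed most, with 8.22 against KO2 and 8.23 against KO3, while KO2 against KO3 gave 2.73. Within WT the values were 3.03 to 4.31. Libraries held 16674678 to 19742726 counts, and a group with at most 3 counts in each library was treated as at the floor, which covers counting error only. The edgeR p-values combine counting noise with a spread between these animals that is estimated with information from all genes. They do not rest on a gene's own spread alone.

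Promoter windows are RefSeq's for GRCm38.p6, and all 7 caspases matched. The printed windows end before, or at most 10 bases into, the annotated gene. Named were all 7 members, of each list the genes past the threshold with an absolute LFC over 0.5, up to 6, and genes whose role needed a value, and the 3 most similar profiles for each caspase that rose by an LFC over 0.5. The members and lists were chosen with earlier results of these data known. The code was tested on simulated data.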

Additional observations from a re-analysis of the deposited data

How the results depend on the processing

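Of the 7 caspases, 5 passed the threshold in edgeR with TMM, and between 3 and 6 did under the alternatives. The number was 3 in DESeq2 with a replicate block for the littermate pairs (*Casp4*, *Casp8* and *Casp12*), 4 with the block in edgeR, and 4 to 5 with a library left out. *Casp2*, which did not pass in any setting, had an LFC of 0.11 with library size alone, 0.01 without WT3 and 0.04 without KO1, and leaving out single libraries moved it from -0.07 to 0.04. Scaling by library size alone raised the median LFC of all genes from 0.03 to 0.16 and gave 5343 higher and 1268 lower genes, against 3634 and 3015, so its LFCs sit on that shift. Apart from *Casp1* and *Casp6*, the block changed no call among the caspases. Leaving out 1 library moved the genes called from 7 to 4 for substrates (without WT1, WT2, KO2 or KO3), from 9 to between 5 and 11 for ER stress (without KO2 and KO1), from 10 to between 8 and 13 for interferon-induced transcripts (8 without WT1 or WT2, 13 without WT3), from 5 to 3 for inflammasomes (without WT1 or KO2), and from 5 to between 3 and 7 for the apoptosome (3 without WT1, KO2 or KO3, 7 without KO1). DESeq2 with the block gave 24 higher and 7 lower genes over the 7 lists, against 35 and 10. The *Casp12* to *Casp1* ratio differed by 1.13 to 2.16 on the log2 scale without single libraries, and the replicate block gives 1.69 again by construction. *Cyct* had an LFC of 0.00 with library size alone. At these depths, the change of *Casp4*, with 0 to 2 counts in WT, can be given only as a bound.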

Other observations

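Among the interferon-induced transcripts read beside the caspases, *Stat2*, chosen here after its values were seen, had 126, 307 and 330 counts in WT against 189, 224 and 369 in MLX KO. WT1 and KO1 were the lowest library of their genotype, and the groups overlapped (LFC -0.09, adjusted p = 0.843 from edgeR). *Oasl2*, also chosen after its values were seen, had 46, 47 and 57 counts in WT against 58, 68 and 140 in MLX KO, with KO3 far above the other libraries (LFC 0.72, adjusted p = 0.0746 from edgeR).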
